A study of Mus musculus with 2 samples.

Results

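Fgf21 and Gdf15 encode secreted stress hormones, and Klb and Fgfr1 encode the cell-surface complex through which FGF21 acts on fat cells. These 4 genes, chosen by symbol and for their known roles, were found in both deposited tables among 27179 genes listed. The tables hold RNA sequencing counts of iBAT (interscapular brown adipose tissue, a fat depot between the shoulder blades) from untreated C57BL/6N mice that were 20 days old and described as male. One group was wildtype (WT) and the other carried a knockout of Ucp1 (Ucp1-KO, Δ/Δ), which encodes uncoupling protein 1, the source of heat in brown fat mitochondria. Each group was 1 library from the pooled tissue of 3 animals. With 1 library per genotype, no difference below could be checked against the spread between animals and no p-value is given.

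Cells under mitochondrial or nutrient stress phosphorylate the translation factor eIF2α, which raises production of the transcription factor ATF4. ATF4 and its partners then switch on genes for amino acid synthesis and transport as well as Fgf21 and Gdf15, so both hormones are widely used as signs of mitochondrial stress. FGF21 is an endocrine fibroblast growth factor (FGF). It signals through an FGF receptor, in fat mainly FGFR1, together with the co-receptor β-klotho (Klb), and the signal runs through RAS and MAP kinases. GDF15, a distant member of the TGF-β superfamily, lowers food intake through its receptor GFRAL in the hindbrain.

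The labels and tissue were looked at first. The libraries held 52950913 counts (WT) and 53216727 counts (Ucp1-KO). Ucp1 stood at 12.7% of its WT level in the Ucp1-KO library (95% counting interval 12.5% to 12.9%), low but not absent. Brown adipocyte genes were present in both, among them Cidea with 89838 and 102812 counts. The 2 libraries also differed in sex-linked and muscle transcripts. Ddx3y, Eif2s3y, Kdm5d and Uty, 4 genes of the Y chromosome, had 0 counts in WT and 5305 in sum in Ucp1-KO, although all animals were described as male. Xist, the RNA that silences an X chromosome in female cells, had 32380 and 16478 counts. Each of the 14 skeletal muscle markers was lower in Ucp1-KO by 2-fold or more, against 9.55% of all genes examined below. Their summed share went from 0.552% to 0.0598% of all counts, and mitochondrial ribosomal RNA made up 1.01% and 6.01%. Genotype cannot be told apart from these differences, and their part in the results below was not tested. In whole tissue, fewer cells of a type and less RNA per cell cannot be told apart either.

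Transcripts of both hormones were counted only in the Ucp1-KO library. Fgf21 (Entrez gene 56636), on chromosome 7 from 45263301 to 45266963 of the mouse genome build GRCm39 on the minus strand, had 0 counts in WT and 98 counts in Ucp1-KO (95% Poisson interval 72.5 to 130). Low counts in these tables were mostly even, as when both mates of a read pair are counted, so all intervals were computed on read pairs. For a count of 0 a limit was set at 6 counts, which is 3 read pairs. The exact 95% Poisson interval of a count of 0 reached further, to 7.38 counts. The Ucp1-KO value was 109 normalised counts after scaling by median-of-ratios size factors. Against the limit of 6 counts in the WT library, this made Fgf21 20.1-fold higher. An exact interval that takes in the counting error of both libraries began at 15.7-fold, so 20.1-fold is not a lower bound.

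Gdf15 (Entrez gene 23886), on chromosome 8 from 71082038 to 71091537 on the minus strand, had 0 counts in WT and 44 counts in Ucp1-KO (27.6 to 66.6), or 48.8 normalised counts. Against the same limit it was 9.03-fold higher, with an exact interval that began at 6.74-fold. Both hormones were thus above the limit in one library and not detected in the other. A listed 0 is not read as absence here, since Sdhd, a subunit of respiratory complex II that cells with mitochondria use, was listed at 0 counts in both libraries (a gene chosen after its values were seen). Neither hormone was abundant where it was found. Per kilobase of its main annotated transcript, Fgf21 reached 113 normalised counts in the Ucp1-KO library, above 43.9% of the genes with a count there. Gdf15 reached 25.5 normalised counts per kilobase, above 25.8% of them.

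**Figure D1:**
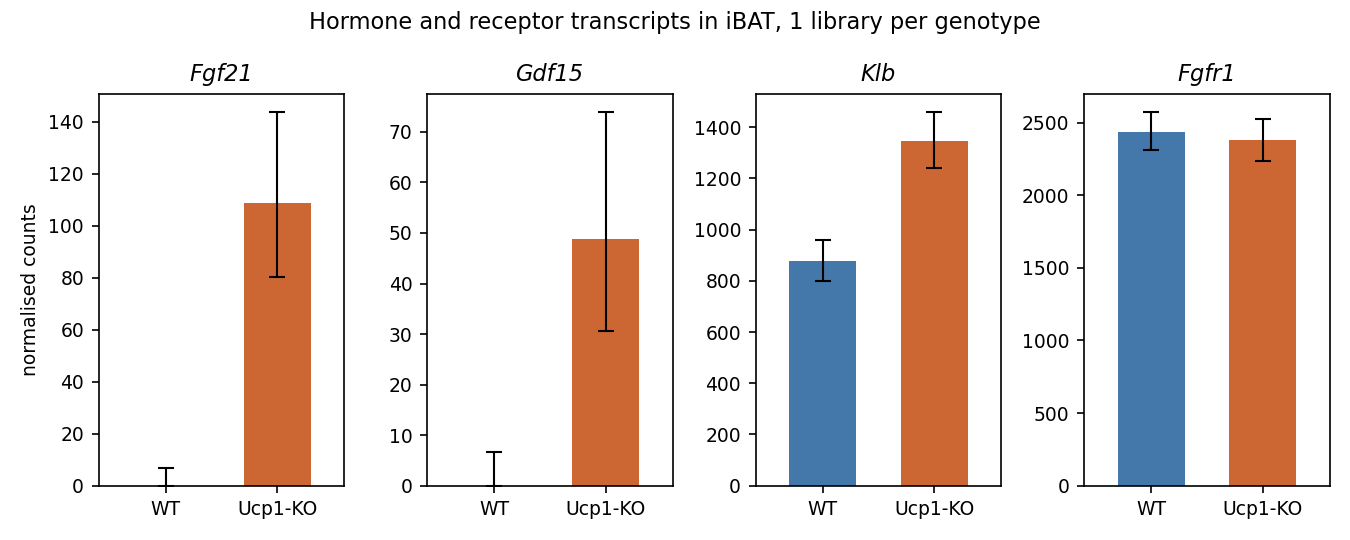
Normalised counts (y axis, linear from 0, a separate scale in each panel) of the 4 genes in the WT and the Ucp1-KO library of iBAT, with exact 95% Poisson intervals on read pairs as error bars. Fgf21 and Gdf15 have counts in the Ucp1-KO library only, Klb stands at 877 and 1347, and Fgfr1 at 2438 and 2378 with overlapping intervals.

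Few genes shared this pattern. Of the 27179 genes listed, 217 had 0 counts in WT and more than 6 counts in Ucp1-KO, which is 0.798%. Only 8 genes at 0 in WT, Fgf21 included, had at least 98 counts in Ucp1-KO, and 4 of these were the genes of the Y chromosome named above. The others were Wwc1, S100g and Tacr2, named because the count was small. Gdf15 was 1 of 14 such genes at its own level of 44 counts. In the opposite direction, more genes, 398, had 0 counts in Ucp1-KO and more than 6 counts in WT. None of these reached 98 counts in WT, and 13 reached 44 counts. The genes nearest to Fgf21 in their pair of normalised levels (Euclidean distance of log2 levels over the 2 libraries) were Acot3 (distance 0.17), Tacr2 (0.19) and Rab17 (0.52). Those nearest to Gdf15 were Gm10912 (0.063), Gm19434 (0.10) and Ano9 (0.21).

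All 4 genes had a mean normalised count of at least 10 over the 2 libraries, the minimum for the comparison of ratios, though Fgf21 and Gdf15 passed it through the Ucp1-KO library alone. At that minimum 15212 genes were examined. Neither receptor gene was at least 2-fold higher in Ucp1-KO, against 1128 genes or 7.42% of all genes examined. The 2 hormones were, but any gene at 0 in WT that passes this minimum must be, so their call adds nothing. Neither receptor gene was at least 2-fold lower, against 1453 genes or 9.55%. Scaling to total counts changed these 2 background numbers to 732 and 2320, because it moved the median log2 ratio of all genes to -0.31.

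**Figure D2:**
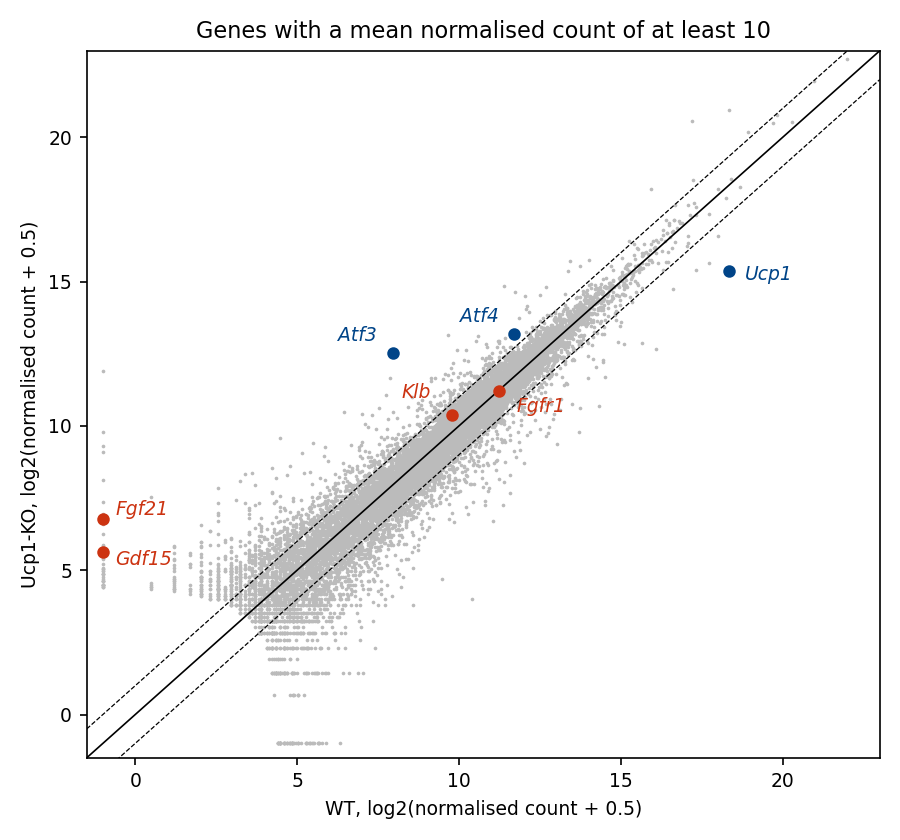
Level of each of the 15212 genes examined in WT (x axis) and Ucp1-KO (y axis), both as log2(normalised count + 0.5), with equality as the solid line and 2-fold differences as dashed lines. Fgf21 and Gdf15 lie at the left edge, where WT counts are 0, Klb lies above the line of equality and Fgfr1 on it, and Ucp1, Atf4 and Atf3 are marked for orientation.

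The hormone genes have close or overlapping neighbours, and the strand setting used for counting was not stated. Fut1, on the opposite strand, shares 245 exon bases with Fgf21 and had 1 count in WT and 8 counts in Ucp1-KO, far fewer than Fgf21. Izumo1, which starts 4244 bases from Fgf21, had 14 and 15 counts. The coding genes beside Gdf15, Lrrc25 (22 and 27 counts) and Pgpep1 (1697 and 1270 counts), had counts in both libraries. Gm34154, a long noncoding RNA gene on the opposite strand that overlaps Gdf15 exons, was not analysed here. None of the 4 genes counted had 0 counts in WT, but the 1 count of Fut1 is within the limit of 6 counts. Fut1 therefore cannot be told apart from a gene at 0 in WT.

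The promoter of Fgf21 is printed because it carries the letters of the element that ATF4 and C/EBP proteins are known to bind. The 250 bases before its RefSeq start (RefSeq, GRCm38.p6, matched without mismatch to chr7:45264915-45265164 of GRCm39, minus strand) follow. Capitals mark the motifs found among 8 searched on both strands. They are the C/EBP-ATF composite element (TGATGNAA, here as its reverse complement, 139 to 132 bases before the start), GC boxes (GGGCGG), an E-box (CACGTG, which overlaps a GC box by 1 base) and a TATA box (TATAAA). The cAMP response element (TGACGTCA), the AP-1 element (TGANTCA), the antioxidant response element (TGACNNNGC) and a pair of AGGNCA half-sites were not found in it.
Fgf21 promoter: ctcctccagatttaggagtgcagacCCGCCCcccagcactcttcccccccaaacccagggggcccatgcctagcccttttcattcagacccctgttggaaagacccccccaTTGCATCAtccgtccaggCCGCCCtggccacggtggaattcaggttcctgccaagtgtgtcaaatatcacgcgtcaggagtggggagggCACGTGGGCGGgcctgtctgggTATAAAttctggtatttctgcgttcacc

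The composite element was present in the 300-base windows of 4.51% of the 27025 genes with a RefSeq promoter, and in those of 8 of 17 genes from a list of known ATF4 pathway effectors (47.1%), which includes genes known for such elements. Of all genes with a promoter, 38.2% held a GC box, 15.7% a TATA box, 8.09% an E-box, 8.97% an AP-1 element and 2.03% a cAMP response element. The sites of Fgf21 and of 5 of these 8 effectors are shown side by side with 8 bases on each side. They are read so that the element (capitals) runs in the same direction. The 5 effectors shown were those higher in Ucp1-KO beyond counting error. Slc7a11, Pycr1 and Trib3, not shown, held the element too and did not differ beyond counting error. All positions are on GRCm39.
Fgf21 (chr7:45265038-45265061, plus strand): tggacggaTGATGCAAtggggggg
Chac1 (chr2:119181522-119181545, minus strand): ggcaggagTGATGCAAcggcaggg
Nupr1 (chr7:126224737-126224760, plus strand): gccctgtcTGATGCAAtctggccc
Asns (chr6:7693217-7693240, minus strand): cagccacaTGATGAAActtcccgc
Pck2 (chr14:55777612-55777635, minus strand): taagatacTGATGTAActttgaag
Vldlr (chr19:27194212-27194235, minus strand): aggagcgcTGATGCAActattgct

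Neither of the RefSeq promoter windows of Gdf15 held the composite element. Both windows lie inside Gdf15 as positioned above. Of their 250 bases before the RefSeq start, 179 and 250 fall in annotated Gdf15 exons. DNA before the start of the gene as positioned above was not searched. The upstream window held a pair of AGGNCA half-sites with 1 base between them, 55 to 43 bases before its RefSeq start. This pair, bound by PPAR with RXR, was found in the windows of 0.451% of genes with a promoter, and it is shown in capitals.
Gdf15 (chr8:71085141-71085169, minus strand): gaccccacAGGTCAGAGGCCAcccagcag

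The window of Klb held 1 of the 8 motifs, the antioxidant response element, which 14.0% of genes had. Fgfr1 had no entry in the promoter table. A match is a run of letters in this window and was not tested for binding.

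Among the known transcription regulators of the hormone genes, Atf3, Egr1 and Atf4 were furthest above equality, while Atf5 and Cebpb were not higher. Differences from here on are log2 ratios of normalised counts, Ucp1-KO over WT with 0.5 added to each, followed by the exact 95% counting interval. With total counts each would be lower by about 0.31, so ratios between 0 and 0.31 would change sign. Atf4 had 3721 and 8375 counts with a log2 ratio of 1.47 (1.39 to 1.55). Atf3, an ATF4 target that encodes a stress-induced transcription factor, had 274 and 5320 counts with a log2 ratio of 4.58 (4.33 to 4.84). Ddit3, which encodes the ATF4 partner CHOP, was at 0.90 (0.75 to 1.04). Of 16 regulators, 3 were higher by 2-fold or more (Atf3, Egr1 and Atf4) and 1 was lower by as much (Mlxipl), against 7.42% and 9.55% of all genes examined, with a median of 0.29 beside -0.0016 for all genes examined. With total counts the median of the regulators was -0.019, which is 0.29 above the shift of all genes.

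The other regulators differed in both directions. Egr1, an immediate early factor known to act on Gdf15, stood at 1.80 (1.62 to 1.99), and Trp53, which encodes p53, another inducer of Gdf15, at 0.83 (0.67 to 1.00). Atf2, the factor downstream of p38 kinase in the cold response of brown fat, was at 0.73 (0.65 to 0.81). The nuclear receptors Ppara (0.32, interval 0.28 to 0.37) and Pparg (0.25, interval 0.20 to 0.30), which induce Fgf21 in liver and fat, were slightly higher, and their partner Rxra was lower (-0.81, interval -0.92 to -0.69). Mlxipl, which encodes the glucose-responsive factor ChREBP, was furthest below equality at -1.24 (-1.29 to -1.19). Nfe2l2 was at 0.11 (0.03 to 0.18) and Cebpb at -0.19 (-0.29 to -0.09). Atf5 (-0.04), Xbp1 (-0.01), Creb3l3 (0.11) and Rora (0.61) had intervals that included 0.

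The enzymes and transporters that ATF4 is known to induce were mostly higher. Of 20 effectors, all examined, 8 were higher by 2-fold or more and 1 was lower by as much, against 7.42% and 9.55% of all genes examined, and the median was 0.75. Beyond counting error, 14 were higher and 2 lower, against 31.5% and 30.5% of all genes examined. Slc7a5 and Slc3a2, the subunits of a large amino acid transporter, were at 2.52 (1.75 to 3.42) and 1.64 (1.55 to 1.74). The mitochondrial folate enzymes Aldh1l2 and Mthfd2 were at 1.91 (1.45 to 2.40) and 1.58 (1.31 to 1.86). Chac1, which degrades glutathione, had 15 and 42 counts with a log2 ratio of 1.75 (0.53 to 3.21). Pck2, the mitochondrial PEP carboxykinase, was at 1.63 (1.52 to 1.74).

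The 8 effectors whose promoters held the composite element differed among themselves. Chac1, Pck2 and Asns (0.96, interval 0.86 to 1.05) were furthest above equality, and Vldlr (0.43) and Nupr1 (0.40) were higher by less. Slc7a11 (0.51) and Pycr1 (-0.46), and Trib3 had intervals that included 0. Trib3, a pseudokinase that is a common ATF4 readout, was at 0.10 from 519 and 451 counts (-0.17 to 0.36). Ddit4, an inhibitor of mTORC1 also induced by glucocorticoids, was lower at -1.05 (-1.17 to -0.93). With total counts 7 effectors were at least 2-fold higher and the median was 0.44. Upstream of ATF4, the 9 genes of the stress relay had a median of 0.14. Only Ppp1r15a was at least 2-fold higher (1.09, interval 0.93 to 1.25), against 7.42% of all genes examined. Ppp1r15a encodes the ATF4-induced subunit that directs removal of the eIF2α phosphate. The eIF2α kinases Eif2ak1 (-0.09), Eif2ak2 (-0.08), Eif2ak3 (-0.14) and Eif2ak4 (0.14) had intervals that included 0. Dele1 and Oma1, which relay mitochondrial stress to Eif2ak1, were at -0.23 (-0.35 to -0.12) and 0.36 (0.11 to 0.61).

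**Figure D3:**
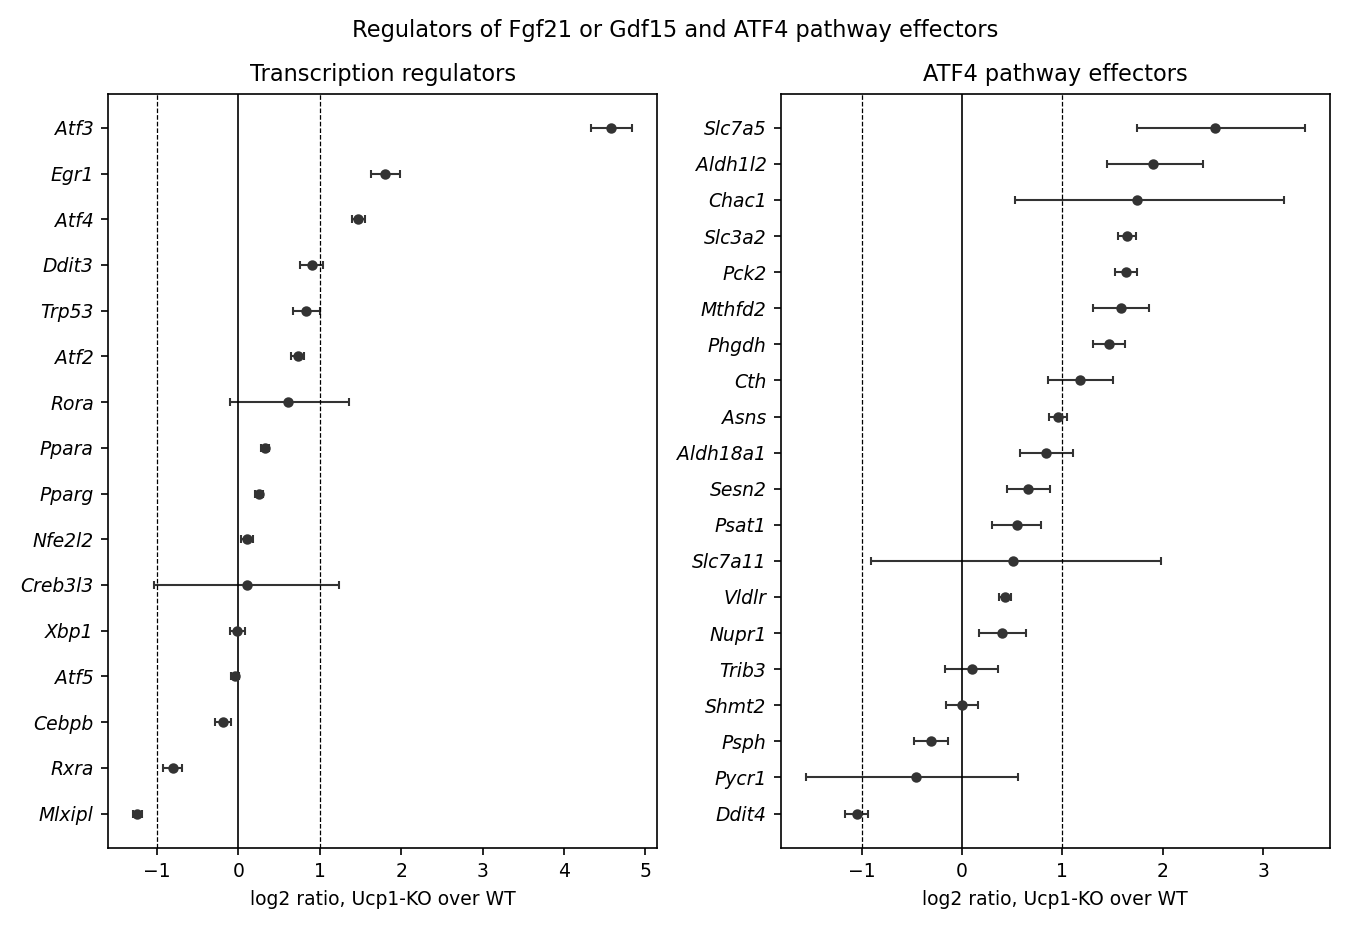
Log2 ratio of normalised counts, Ucp1-KO over WT (x axis), for 16 transcription regulators of Fgf21 or Gdf15 (left) and 20 ATF4 pathway effectors (right), with exact 95% counting intervals and 2-fold differences as dashed lines. Atf3 at 4.58 stands furthest right among the regulators and Slc7a5 at 2.52 among the effectors, while Mlxipl and Ddit4 lie lowest.

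The FGF21 co-receptor was higher in Ucp1-KO and its receptor was not. Klb (Entrez gene 83379), on chromosome 5 from 65505657 to 65541827 on the plus strand, had 973 counts in WT (888 to 1063) and 1214 in Ucp1-KO (1119 to 1315). Its normalised counts were 877 and 1347, a log2 ratio of 0.62 (0.44 to 0.79), or 1.54-fold. This was beyond counting error but within the range of other genes, since 85.6% of those examined had a lower ratio. Rpl9, a ribosomal protein gene on the opposite strand that shares 662 exon bases with Klb, was at 0.33 (0.29 to 0.37) with 17137 and 17517 counts, and how much of its reads entered the Klb count cannot be told from the tables.

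Fgfr1 (Entrez gene 14182), on chromosome 8 from 26003670 to 26066824 on the plus strand, had 2705 counts in WT (2563 to 2853) and 2143 in Ucp1-KO (2017 to 2275). Its normalised counts were 2438 and 2378, and the Ucp1-KO level was 97.5% of WT (89.9% to 106%), so a difference was not detectable beyond counting error. With total counts Klb was at 0.31 and Fgfr1 at -0.34, both changed by about the shift of all genes. The ratio of the 2 genes within a library does not depend on scaling. There were 0.360 Klb counts per Fgfr1 count in WT and 0.566 in Ucp1-KO, a 1.57-fold difference (1.36 to 1.82).

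Per kilobase of the main transcript, Fgfr1 was at 397 normalised counts and Klb at 248 in WT, and at 387 and 380 in Ucp1-KO. Klb thus stood at 0.624 of the Fgfr1 level in WT (0.561 to 0.692) and at 0.982 in Ucp1-KO (0.888 to 1.09), where the pair did not differ beyond counting error. The order depended on the length used. With all annotated exons of each gene joined, Klb stood at 0.911 and 1.44 times Fgfr1. In either library the receptor transcripts were above the hormone transcripts, with Fgf21 at 113 and Gdf15 at 25.5 normalised counts per kilobase in Ucp1-KO.

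Klb is made by adipocytes, and markers of this cell type differed in both directions. Of 9 adipocyte markers, 6 were above and 3 below equality, with a median of 0.25 (-0.056 with total counts), no marker at 0 counts and summed shares of 1.19% and 1.15% of all counts. Set against each marker within the same library, Klb ranged from 0.856 times its WT ratio relative to Adipoq (0.758 to 0.970) to 3.67 times relative to Lep (2.90 to 4.62). The ratio was 1.04 relative to Plin1 (0.921 to 1.18), 1.03 relative to Pnpla2, 1.29 relative to Lipe and Pparg, 1.38 relative to Fabp4, 1.59 relative to Cidec and 2.54 relative to Cebpa. The interval relative to Plin1 included 1, so the size and direction of the Klb difference depended on the marker it was set against. The 10 fibroblast and preadipocyte markers, cells that also make Fgfr1, had a median of -0.14, with single markers from -0.68 to 0.12. Endothelial markers had a median of -0.87 with 9 of 10 below equality, and macrophage markers of 0.53 with 8 of 10 above it. The macrophage median was 0.22 with total counts and 0.25 at a minimum mean of 50. The part of these cells in the values of the 4 genes was not tested. Of liver and exocrine pancreas, organs known to make Fgf21, the 8 markers each had 42 and 43 counts in sum for liver (3 markers at 0 in WT and 6 in Ucp1-KO) and 2 and 10 for pancreas (7 and 6 at 0). The liver marker Alb had 2 counts in each library.

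Of the other 4 FGF receptors, 3 were lower and 1 was higher beyond counting error, against 30.5% and 31.5% of all genes examined. Fgfr3 was at -0.83 (-1.06 to -0.62), Fgfr2 at -0.33 (-0.64 to -0.03) and Fgfr4, with 33 and 7 counts, at -1.87 (-4.14 to -0.24). Fgfrl1, which lacks the kinase domain, was at 0.34 (0.24 to 0.45). Of the summed level per kilobase of the 5 receptors, Fgfr1 held 34.6% in WT and 34.3% in Ucp1-KO, the highest share of the receptors with a kinase domain. The other klotho co-receptor gene Kl had 4 and 2 counts, and the related Lctl was at -0.23 (-0.38 to -0.08). Fgf15 and Fgf23, the other endocrine FGFs, had 0 counts in both libraries. Of the GDF15 receptor, Gfral had 0 counts in both, and its signalling partner Ret had 195 and 75 counts with a log2 ratio of -1.07 (-1.66 to -0.52).

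Genes behind the receptor differed by layer. The 16 signal transducers, from the adaptor Frs2 to the kinase Mapk3, had a median of -0.036, and none was 2-fold different. The furthest were Hras (-0.49, interval -0.61 to -0.37), Plcg1 (-0.48, interval -0.57 to -0.39) and Braf (0.35, interval 0.24 to 0.47). The 13 feedback and target genes of FGF signalling had a median of 0.55, with 3 higher by 2-fold or more and 1, Etv4, lower by as much, against 7.42% and 9.55% of all genes examined. Beyond counting error, 8 were higher and 1 lower, against 31.5% and 30.5%. Egr1 (1.80) and Fos, also an immediate early factor (1.43, interval 1.08 to 1.81), were highest. The MAP kinase phosphatases Dusp5 (1.16, interval 0.49 to 1.88), Dusp4 (0.97, interval 0.80 to 1.14) and Dusp6 (0.82, interval 0.73 to 0.92) were higher, and so were the inhibitors Spry2 (0.92, interval 0.73 to 1.11) and Spry4 (0.55, interval 0.42 to 0.67). Etv5, an ETS factor induced by FGF, was lower at -0.66 (-1.17 to -0.16), and Etv4 had 20 and 7 counts with an interval from -3.50 to 0.65. These genes answer to many growth factors, and which signal moved them was not measured.

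**Figure D4:**
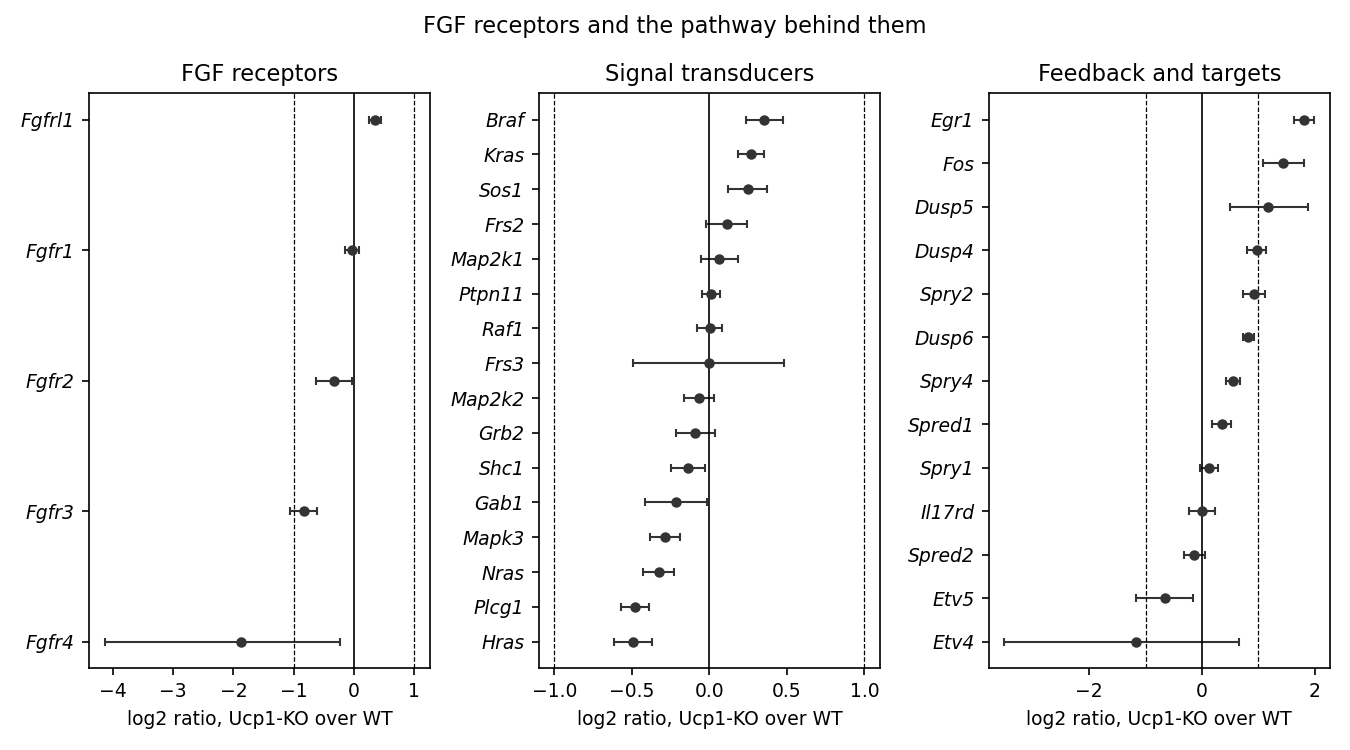
Log2 ratio of normalised counts, Ucp1-KO over WT (x axis, a separate scale in each panel), for FGF receptors, signal transducers and feedback or target genes, with exact 95% counting intervals and 2-fold differences as dashed lines. Fgfr1 lies at equality, all 16 transducers lie within 2-fold, and Egr1, Fos and Dusp5 lie beyond 2-fold among the feedback and target genes.

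Genes known to respond to FGF21 in fat were split. Ppargc1a, the coactivator of mitochondrial biogenesis, had 4105 and 12332 counts with a log2 ratio of 1.89 (1.81 to 1.96). Dio2, which activates thyroid hormone, was at 2.28 (2.23 to 2.32) and Adipoq at 0.84 (0.81 to 0.87). Cidea, a lipid droplet protein of brown fat, was at 0.49 (0.48 to 0.51). Slc2a1, the glucose transporter GLUT1 that FGF21 induces in cultured adipocytes, was lower at -0.67 (-1.10 to -0.26). Ucp1, also on the list, was the gene knocked out. The 6 genes, Ucp1 included, had a median of 0.67. Of them, 2 were higher by 2-fold or more and 1 lower, against 7.42% and 9.55% of all genes examined. The 1 lower gene was Ucp1 itself, so its call adds nothing. Ucp1, Cidea, Ppargc1a and Dio2 are also among 8 brown adipocyte markers, which had a median of 0.94. Of these markers, 4 were higher by 2-fold or more and 1 was lower by as much, against 7.42% and 9.55% of all genes examined. The 1 lower marker was again Ucp1, the gene knocked out, which also enters the median. Whether FGF21 had a part in these differences was not tested.

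Proteases that process the hormones differed in both directions. Beyond counting error 1 of 6 was higher and 2 were lower, against 31.5% and 30.5% of all genes examined. Pcsk5, a proprotein convertase, had 684 and 2897 counts with a log2 ratio of 2.38 (2.21 to 2.56). Furin, a convertase that can release GDF15 from its precursor, was at -0.42 (-0.50 to -0.33), and Fap, which cuts and inactivates FGF21, at -0.68 (-1.04 to -0.33). Pcsk6 (-0.05), Dpp4 (0.09) and Mmp14 (0.10), the membrane protease that cuts GFRAL, had intervals that included 0. Of the 6 genes, only Pcsk5 differed by 2-fold or more, against 7.42% higher and 9.55% lower among all genes examined.

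Other factors secreted by brown fat lay on both sides of equality. Of 20 genes, 19 were examined, 2 were higher by 2-fold or more and 4 were lower by as much, against 7.42% and 9.55% of all genes examined, with a median of -0.17. Beyond counting error, 8 were higher and 10 lower, against 31.5% and 30.5% of all genes examined. Adipoq was among those higher, as given above. Bmp8b, which increases the response of brown fat to nerves, had 38 and 154 counts with a log2 ratio of 2.30 (1.58 to 3.13). Slit2 was at 1.93 (1.03 to 2.98), from 26 and 82 counts. Angptl4 and Angptl8, inhibitors of lipoprotein lipase, were at 0.74 (0.69 to 0.79) and 0.92 (0.74 to 1.11). Fst (0.65) and Metrnl (0.64) were also higher beyond counting error. Vegfa, the angiogenic factor, was nearly equal at 0.07 (0.04 to 0.11) and Nrg4 at -0.17 (-0.26 to -0.08).

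The 4 genes lower by 2-fold or more were Rbp4, Retn, Lep and Igf1. Rbp4, the retinol carrier, was at -2.35 (-2.58 to -2.13), Retn (resistin) at -1.90 (-2.06 to -1.73), Lep (leptin) at -1.26 (-1.55 to -0.98) and Igf1 at -1.02 (-1.22 to -0.82). Cxcl14 (-0.85), Ptgds (-0.59), Epdr1 (-0.46), Pltp (-0.36) and Nampt (-0.22) were lower by less than 2-fold. Lcn2 was at -0.14 with an interval from -0.99 to 0.69, and Il6 had 0 counts in both libraries.

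Among the 11 growth differentiation factors, the family names that Gdf15 shares, 6 were examined. Gdf11 had 29 and 66 counts (1.47, interval 0.56 to 2.49) and Gdf9 had 35 and 60 counts (1.07, interval 0.18 to 2.02). Gdf10 was lower at -1.12 (-1.43 to -0.82), and Gdf5 was at 0.18 (-0.40 to 0.75). Mstn, the muscle factor myostatin, had 36 counts in WT and 0 in Ucp1-KO, alongside the lower muscle markers. Against a limit of 6 counts in Ucp1-KO it was 4.87-fold lower, and its exact interval reached up to 28.0% of the WT level. Gdf1, Gdf2, Gdf3 and Gdf7 had 0 counts in both. No other member of the group went from 0 counts in WT to a count in Ucp1-KO.

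**Figure D5:**
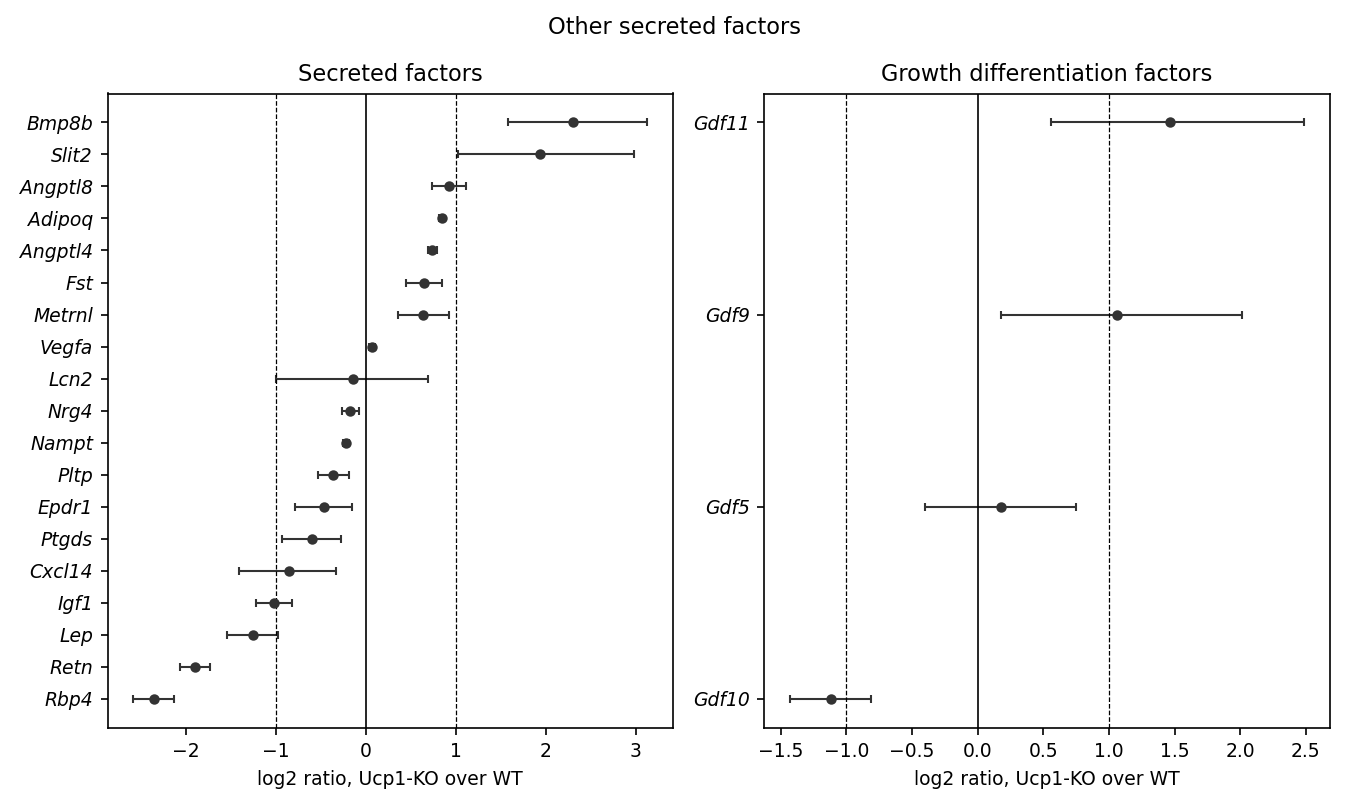
Log2 ratio of normalised counts, Ucp1-KO over WT (x axis, a separate scale in each panel), for 19 secreted factors of brown fat (left) and the 4 growth differentiation factors with counts in both libraries (right), with exact 95% counting intervals and 2-fold differences as dashed lines. Bmp8b at 2.30 and Slit2 at 1.93 lie furthest right and Rbp4 at -2.35 furthest left.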

How the data were processed

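Total RNA of iBAT from 3 pooled animals per genotype was extracted with a Promega kit and made into directional, poly-A enriched libraries. The deposited values are raw counts per gene, which the authors made with featureCounts. Trim Galore, HISAT2 and the build mm39 are listed in the submitters' processing notes. The annotation, the strand setting and the treatment of reads with several matches were not given in the sources used here, so overlapping genes and near-identical copies are uncertain.

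Size factors (DESeq2 1.42.0, R 4.3.3) were 1.11 for WT and 0.901 for Ucp1-KO. Of genes with 1 to 10 counts, 70.7% (WT) and 73.4% (Ucp1-KO) had an even count, and intervals were computed on read pairs, with 2 counts per pair. Of genes with 100 to 1000 counts, 49.9% (WT) and 50.2% (Ucp1-KO) had an even count. They are exact 95% Poisson intervals for counts and exact conditional binomial (Clopper-Pearson) intervals for ratios (SciPy 1.17.1), cover counting error only and leave out differences between animals. The ratio and its interval were also run on simulated data. Those counts were drawn as Poisson read pairs, as the interval assumes, so the run checks the calculation only. A log2 ratio of 1 in size was the size rule. Levels between genes are per kilobase of the canonical transcript of GENCODE mouse release 39, joined by symbol for 96.7% of genes examined. Promoter windows (250 bases before and 50 after the start) are from RefSeq.

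The 4 genes and the 22 lists were chosen with earlier results of these data known. One gene of the signal transducers is not reported here. Named genes were the 4 members, Ucp1, every gene of a list no longer than 6, all secreted factors and transcription regulators, up to 6 members of other lists with the log2 ratios largest in size (up to 3 for markers and transducers), and the 3 genes nearest to each member in log2 level. Genes named outside this rule, such as neighbours of the members and several list members, were chosen after their values were seen.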

Additional observations from a re-analysis of the deposited data

How the results depend on the processing

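No paired analysis was possible because there was 1 library per genotype. Leaving out a library was likewise not possible. Other settings were TMM factors (edgeR 4.0.16), total counts with or without mitochondrially encoded genes, and removal of the trend on mean expression. With 0 counts in WT, Fgf21 and Gdf15 could only be higher under these, so only the size was at issue. The lowest folds ran from 16.3 to 21.7 for Fgf21 and from 7.30 to 9.98 for Gdf15. With this limit or floor set at 3 counts as deposited, the folds of the 2 hormones were 40.2 and 18.1. At that floor, 457 genes in place of 217 were at 0 in WT and above it in Ucp1-KO. A pseudocount does not enter these folds. Total counts moved Klb to 0.31, Fgfr1 to -0.34 and Ucp1 to -3.28, with the shift of all genes by -0.31. They also moved the median of the ATF4 pathway effectors to 0.44, of the feedback and target genes to 0.24, of the transducers to -0.34 and of the secreted factors to -0.48. The regulators (-0.019), the klotho co-receptors (-0.11) and the adipocyte markers (-0.056) changed sign, each by about that shift. Without a minimum the klotho co-receptors were at -0.23, because Kl entered, and the hepatocyte markers at -1.49, because markers with almost no counts entered. A minimum mean of 50 gave 0.68 for the feedback and target genes. Genes at least 2-fold higher and lower numbered 732 and 2320 with total counts, 2187 and 2844 without a minimum, and 617 and 811 with a minimum of 50. Joined exon lengths, an alternative chosen after seeing the data, put Klb at 0.911 (WT) and 1.44 (Ucp1-KO) times Fgfr1. Depth limits Gdf15, Fgfr4, Chac1, Etv4 and the size of both hormone differences.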

Other observations

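Genes nearest to the receptor genes in their pair of levels, by the same distance as for the hormones, were Nfkbiz (distance 0.029), Utp18 (0.033) and Polr3d (0.042) for Klb, and Colgalt1, Wdfy1 and Capn7 (0.011 to 0.012) for Fgfr1. With 2 libraries such likeness is a likeness of 2 numbers.

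Of the genes beside the members, chosen for their position, Bcat2, a branched-chain amino acid aminotransferase 24148 bases from Fgf21, was at 0.83 (0.76 to 0.90). Letm2, 1670 bases from Fgfr1, was at -0.96 (-1.35 to -0.58), unlike Fgfr1 itself. Gdf15 and Fgfr1 lie on the same chromosome as Ucp1, at 12.9 and 57.9 Mb from it. The genes on either side of Ucp1, Tbc1d9 and Elmod2, were at 0.33 (0.11 to 0.55) and 0.19 (0.06 to 0.32).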
